A study of Mus musculus with 48 samples.

Results

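The genes described here are 9 core genes of the transforming growth factor beta (TGF-beta) pathway, chosen by name from the 50600 genes listed in the count tables: the ligand genes Tgfb1 and Tgfb2, the receptor genes Tgfbr1 and Tgfbr2, the signal transducer genes Smad2, Smad3 and Smad4, and the inhibitor genes Smad7 and Skil. Each symbol matched 1 Ensembl gene, and all 9 passed the filter on low counts that left 13889 genes for testing.

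TGF-beta ligands are secreted in a latent form and, once released, bring together a type II and a type I receptor kinase at the cell surface. The type I receptor phosphorylates Smad2 and Smad3, which join Smad4, enter the nucleus and act on target genes. Smad7, itself a target gene, blocks the type I receptor, and Skil (SnoN) represses Smad complexes on DNA. In pancreatic ductal adenocarcinoma the pathway is known for restraining growth of early lesions and for driving invasion and a mesenchymal state in advanced tumours, and SMAD4 is one of the genes often lost in the human disease.

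The libraries came from mPDAC cells, a mouse pancreatic ductal adenocarcinoma line that is labelled with the genetic background FVB/N x C57BL6 and the age 8-week-old. Of 6 cultures, 3 were treated with N6L, a pseudopeptide that binds the nucleolar protein nucleolin, for 48 h and 3 were non-treated (NT). From each culture, poly(A)+ RNA of the cytoplasm and of the pooled polysomes, which are mRNAs carrying several ribosomes, gave 1 library each, so that the 4 groups NT cytoplasm, N6L cytoplasm, NT polysomes and N6L polysomes held 3 libraries. Each library was the sum of 4 technical replicates and held 19519911 to 44972333 counts.

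All 4 groups are 1 tumour cell line grown in dishes, with no stromal, immune or endothelial cells and no added TGF-beta named in the labels. Of 8 ductal epithelial markers, 7 reached a mean of 1 CPM (counts scaled to a common library size), and their summed level was 6522 to 10746 CPM over the 12 libraries, while Epcam had 10 counts at most. The 6 fibroblast markers summed to at most 0.584 CPM, the 6 leukocyte markers to at most 2.23 CPM and the 4 endothelial markers to at most 1.15 CPM. Of the 5 acinar markers 3 were at 0 in every library and Cela1 alone exceeded 1 CPM. Their sum, nearly all Cela1, was 27.6 to 82.8 CPM over the 12 libraries. Of the 5 islet markers 4 were at 0. In such bulk libraries, fewer cells that express a gene and less of its mRNA per cell cannot be told apart.

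One feature of whole libraries touches the members. On the log2 scale, the level of a gene relative to its 12-library mean rose by 0.202 to 0.229 per doubling of exon length in the N6L cytoplasm, against -0.109 to 0.0543 in the NT cytoplasm. Among polysomal libraries, N6L culture 3 (-0.236) and NT culture 4 (-0.216) stood apart from the other four, which were between -0.0773 and -0.00125. The median exon length was 5791 bases for the members and 4042 bases for all genes tested. Values from a fit with an offset for length and GC content are given beside results that it moved most.

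Per kilobase of exon, the transducer genes Smad4 and Smad3 were the most abundant members in non-treated cells. In the NT cytoplasm, Smad4 stood at 26.2 ± 4.45 CPM per kilobase (mean ± SD, n = 3 cultures here and below) and Smad3 at 21.7 ± 3.59, with overlapping ranges over the cultures. Smad7 followed at 12.4 ± 0.816, Tgfb1 at 7.93 ± 0.140, Tgfbr2 at 6.53 ± 0.269, Smad2 at 6.34 ± 1.51 and Skil at 5.23 ± 1.40 CPM per kilobase. The ranges of Tgfbr2 and Smad2 overlapped, and so did those of Smad2 and Skil. Tgfbr1, the type I receptor, was lower at 1.57 ± 0.511, and Tgfb2 was at 0.0717 ± 0.0143 CPM per kilobase.

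The order shifted with N6L. In the N6L cytoplasm Smad3 was first at 36.2 ± 0.581 CPM per kilobase and did not overlap with Smad4, second at 28.6 ± 3.60. Skil was in place 4 instead of place 7 at 11.1 ± 1.83 CPM per kilobase, in a run with Smad7, Smad2 and Tgfbr2 whose neighbours overlapped. Tgfb1 stood behind these in place 7 at 6.83 ± 0.706. The choice of length matters for Tgfb1, whose longest transcript of 2573 bases is shorter than its union of exons of 5042 bases: per kilobase of longest transcript it took place 3 in the NT cytoplasm and place 4 in the N6L cytoplasm. It matters for Skil too (6717 against 9694 bases), which by longest transcript took place 5 in the NT and place 3 in the N6L cytoplasm.

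**Figure D1:**
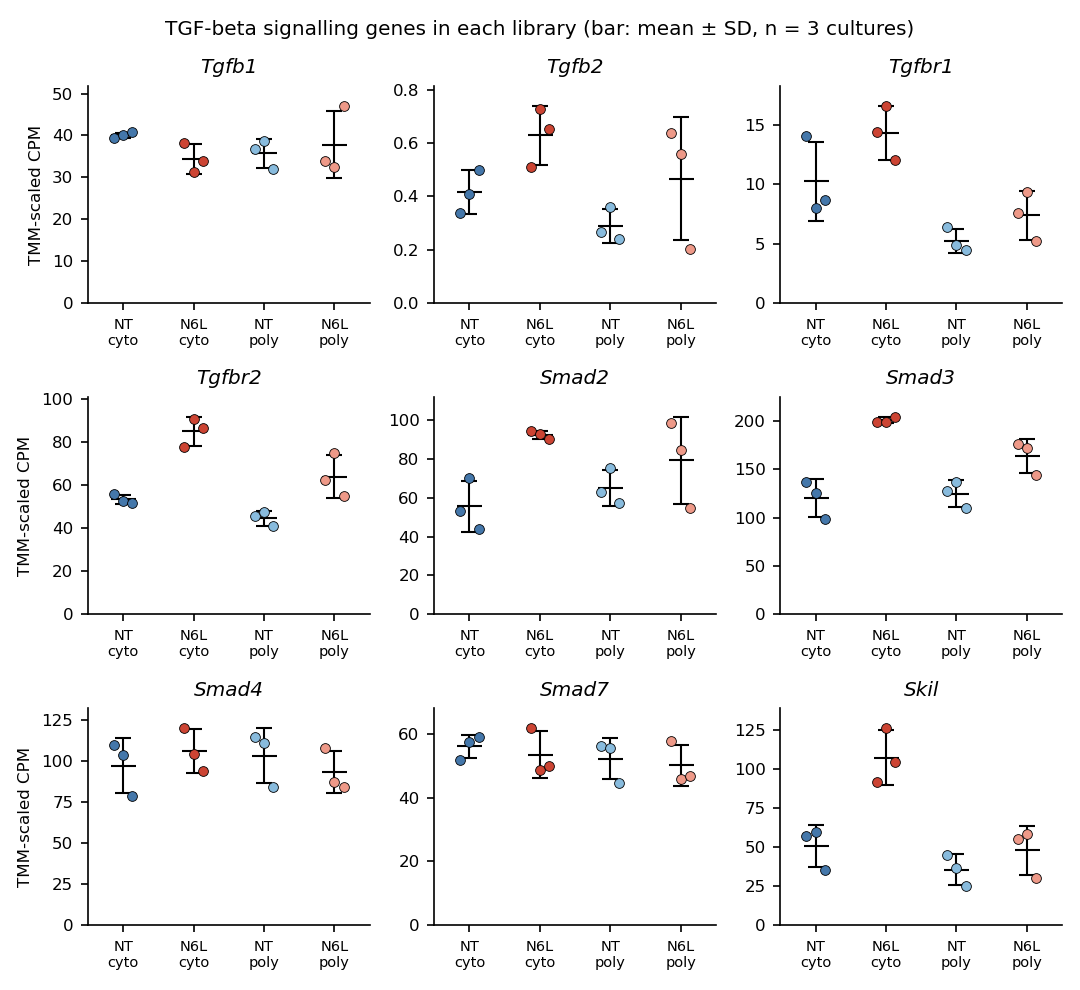
Level of each of the 9 genes in CPM scaled by trimmed mean of M values (TMM; vertical axis, linear from 0) in the 12 libraries, grouped along the horizontal axis as NT and N6L cytoplasm and NT and N6L polysomes; points are cultures and bars the mean ± SD of 3 cultures. Smad2, Smad3, Tgfbr2, Skil and the low Tgfb2 in the N6L cytoplasm lie above every NT cytoplasm library, and Tgfb1 lies below. Smad4, Smad7 and Tgfbr1 overlap. Of all genes tested, 54.9% had no overlap in this comparison.

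In the cytoplasm 4 of the 9 members rose with N6L at an edgeR false discovery rate (FDR) under 0.05 and none fell: Skil, Smad3, Smad2 and Tgfbr2. Over all genes tested 28.3% were called in this comparison, 14.5% higher and 13.8% lower. The median log2 change was 0.64 over the members and 0.04 over all genes. With an offset for length and GC content the 4 members stayed called, where 4307 of 13867 genes were called over all. The median under that offset was 0.37 for the members and 0.011 for all genes. Scaling by library size alone shifted the median of all genes to 0.19 and that of the members to 0.79, with the number of members called at 4. Without N6L culture 2, Smad3 alone stayed called, and the calls over all genes fell from 3935 of 13889 to 1295 of 14019.

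The sequences shown are stretches before the RefSeq start sites of the receptor gene Tgfbr2 and of Smad3, which rose together, and of Tgfb1 and Tgfbr1, which were not called. Of 6 promoter windows of 5 members, these 4 hold a GC box, the letters GGCGGG or CCCGCC on the other strand, a site for Sp1-family factors. The capitals mark the GC box nearest to the start, each line reads 5′ to 3′ on the gene's strand, and the build is GRCm38.p6.
Tgfbr2 (chr9:116175499-116175528, minus strand): gagcccagacttGGCGGGgtgggggttgcg
Smad3 (chr9:63758147-63758176, minus strand): gacttgggagcgGGCGGGagaggagcgggt
Tgfb1 (chr7:25686970-25686999, plus strand): ggcttcaaaaccCCCGCCgccccagccggt
Tgfbr1 (chr4:47353137-47353166, plus strand): ggaggcggggtcGGCGGGagccgggcagcc

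The box began 153 bases before the start of Tgfbr2, 170 before that of Smad3, 20 before that of Tgfb1 and 73 before that of Tgfbr1. Of 32851 mouse promoter windows of the same length 32.5% held the same letters. The Smad-binding core CAGAC, or GTCTG on the other strand, was found in 42.2% of all windows and, among the members, in those of Tgfbr2 and Tgfb2 and in the second of the 2 listed windows of Tgfbr1. No match was found in the windows of Tgfb1 and Smad3, which says only that these letters are not there.

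Tgfb1, the main ligand of these cells, is on chromosome 7 (chr7:25687002-25705077, plus strand, GRCm38). Its cytoplasmic level was 39.3, 40.0 and 40.7 CPM in NT cultures 1, 2 and 4 and 38.3, 31.2 and 33.8 CPM in N6L cultures 1, 2 and 3. All N6L values were lower than all NT values, yet the log2 change was -0.22 ± 0.17 (SE) with an FDR of 0.334. Together the isoform genes Tgfb1, Tgfb2 and Tgfb3 were 95.5% ± 0.176 Tgfb1 per kilobase in the NT cytoplasm and 91.9% ± 1.47 in the N6L cytoplasm, and the Tgfb3 share was 3.62% ± 0.326 and 6.57% ± 1.09.

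Tgfb2 (chr1:186622792-186705989, minus strand) was near the lower limit of what was measured. It had 5 to 36 counts per library, that is 0.336, 0.409 and 0.501 CPM in the NT cytoplasm and 0.510, 0.727 and 0.652 CPM in the N6L cytoplasm. The log2 change was 0.64 ± 0.39 (SE, FDR 0.219). It shares 124 exonic bases with the antisense gene Gm29491, and the strand setting of the counting is not given in the sources used here.

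The type II receptor gene Tgfbr2 (chr9:116084293-116175360, minus strand), which encodes the kinase that binds the ligand first, rose. It was at 55.9, 52.7 and 51.7 CPM in NT cultures 1, 2 and 4 and at 77.8, 91.0 and 86.8 CPM in N6L cultures 1, 2 and 3. The groups did not overlap, and the log2 change was 0.67 ± 0.15 (SE, FDR 0.00636). The change was 0.37 with the length and GC offset (FDR 0.0328) and lost its call without N6L culture 2 (FDR 0.0545). It also lost its call with that offset and the replicate number as a block (FDR 0.105).

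Tgfbr1 (chr4:47353222-47414931, plus strand), the type I receptor that phosphorylates the Smads, did not pass. It was at 14.1, 7.99 and 8.66 CPM in the NT cytoplasm and at 14.4, 16.6 and 12.02 CPM in the N6L cytoplasm, where NT culture 1 lay within the N6L range. The log2 change was 0.48 ± 0.25 (SE, FDR 0.163), and 0.24 with the length and GC offset (FDR 0.337). Within a library, the Tgfbr2 level per kilobase was 4.40 ± 1.09 times that of Tgfbr1 in the NT and 4.82 ± 0.818 times in the N6L cytoplasm.

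Both receptor-activated Smads rose. Smad3 (chr9:63646767-63757994, minus strand) went from 137, 126 and 98.1 CPM in the NT cytoplasm to 199, 199 and 205 CPM in the N6L cytoplasm, a log2 change of 0.74 ± 0.16 (SE, FDR 0.00535). It was called under each of the 17 alternatives run, with log2 changes of 0.50 to 0.88.

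Smad2 (chr18:76241580-76310963, plus strand) went from 53.1, 70.0 and 43.9 CPM to 94.4, 92.9 and 90.5 CPM, a log2 change of 0.73 ± 0.22 (SE, FDR 0.0229). NT culture 4 was the lowest and N6L values spread over less than 4 CPM. The change was 0.38 with the length and GC offset (FDR 0.0393). It was not called without NT culture 1 (FDR 0.0874), NT culture 4 (FDR 0.115) or N6L culture 2 (FDR 0.110). Nor was it called with that offset and the replicate number as a block (FDR 0.176). Within a library, the Smad3 level per kilobase was 3.49 ± 0.616 times that of Smad2 in the NT and 3.44 ± 0.126 times in the N6L cytoplasm.

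Smad4 (chr18:73639009-73703780, minus strand), the partner shared with the bone morphogenetic protein (BMP) branch, was not called. It was at 110, 104 and 78.7 CPM in the NT cytoplasm and 120, 104 and 94.0 CPM in the N6L cytoplasm. The ranges overlapped and the log2 change was 0.12 ± 0.18 (SE, FDR 0.619).

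The 2 inhibitor genes differed from each other in their values. Smad7 (chr18:75367529-75395935, plus strand) was at 52.1, 57.6 and 59.0 CPM in the NT and 62.1, 48.8 and 50.04 CPM in the N6L cytoplasm, a log2 change of -0.07 ± 0.16 (SE, FDR 0.764) whose sign flips when scaled by library size alone. Skil (chr3:31095058-31122577, plus strand) went from 57.0, 60.0 and 35.1 CPM to 91.6, 127 and 104 CPM, a log2 change of 1.08 ± 0.28 (SE, FDR 0.0126). The Skil groups did not overlap, and 94.4% of the genes tested had a lower log2 change. With the length and GC offset the Skil change was 0.73 (FDR 0.00411), and without N6L culture 2 it was 0.90 with an FDR of 0.0822.

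Ratios between members within a library are free of any scaling between libraries, but not of the length trend described above. Exon length was 9694 bases for Skil and 3712 for Smad4, and 4521 for Smad7 and 5542 for Smad3. The pairs Skil with Smad4 and Smad7 with Smad3 were chosen after the values were seen and are given without a test. The Skil level per kilobase was 0.198, 0.222 and 0.171 times that of Smad4 in the NT cytoplasm and 0.291, 0.466 and 0.425 times in the N6L cytoplasm. The Smad7 level was 0.467, 0.561 and 0.737 times that of Smad3 in the NT cytoplasm and 0.382, 0.300 and 0.300 times in the N6L cytoplasm. In the cytoplasm neither pair of groups overlapped. The other pairs computed did overlap there: Smad3 over Smad2 was 2.85 to 4.08 in NT and 3.34 to 3.58 in N6L cells. Tgfbr2 over Tgfbr1 was 3.17 to 5.26 in NT and 4.31 to 5.76 in N6L cells. On polysomes Skil over Smad4 overlapped, at 0.113 to 0.149 in NT and 0.137 to 0.256 in N6L cells. Smad7 over Smad3 did not, at 0.498 to 0.542 in NT and 0.327 to 0.402 in N6L cells.

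Of the 9 members, 6 had cytoplasmic levels without overlap between treatments (5 higher with N6L and Tgfb1 lower), a share to be read against 54.9% of all genes tested.

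**Figure D2:**
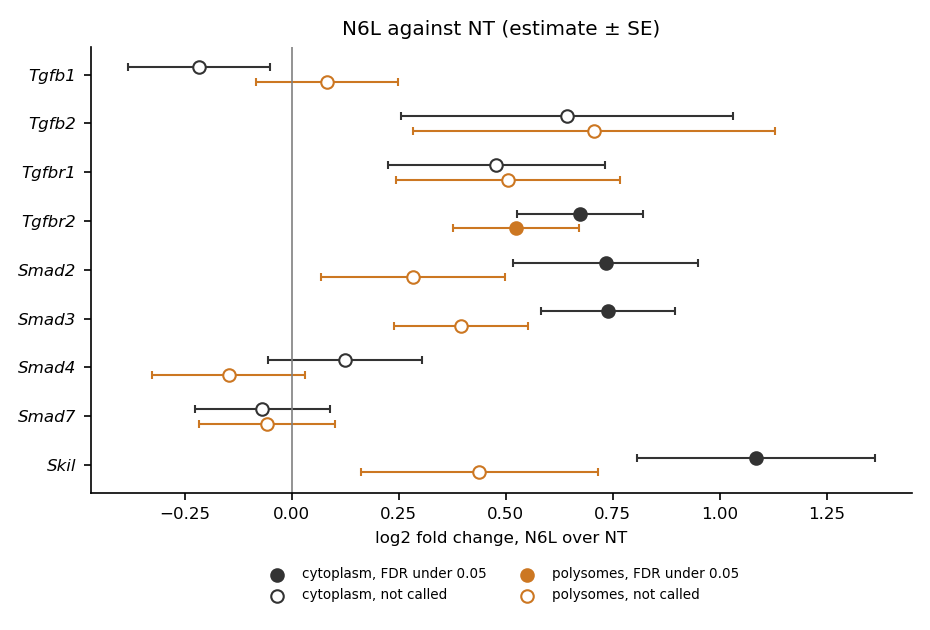
Log2 fold change of N6L over NT (horizontal axis) for each gene in the cytoplasm (dark) and in polysomes (orange); points are edgeR estimates, bars ± 1 SE, and filled points have an FDR under 0.05. In the cytoplasm Skil (1.08), Smad3 (0.74), Smad2 (0.73) and Tgfbr2 (0.67) are filled, in polysomes Tgfbr2 (0.52).

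On polysomes 1 member, Tgfbr2, rose with N6L and none fell, where 9.67% of all genes tested were called, 6.01% higher and 3.66% lower. Tgfbr2 was at 45.6, 47.4 and 40.8 CPM in the NT polysomes and 62.5, 74.8 and 54.9 CPM in the N6L polysomes, a log2 change of 0.52 ± 0.15 (SE, FDR 0.0408). The groups did not overlap, but the call was lost when any culture other than N6L culture 3 was left out, with FDR values of 0.0552 to 0.266, and with the replicate number as a block (FDR 0.0590).

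Smad3 was at 128, 137 and 110 CPM in the NT and 176, 173 and 144 CPM in the N6L polysomes, also without overlap, with a log2 change of 0.40 ± 0.16 (SE, FDR 0.123). Smad2 was at 63.1, 75.3 and 57.3 CPM in the NT and 98.8, 84.5 and 54.6 CPM in the N6L polysomes. Its log2 change was 0.28 ± 0.22 (SE, FDR 0.431). N6L culture 3 gave the lowest of all 6 polysomal Smad2 values.

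Skil was at 44.8, 36.7 and 24.9 CPM in the NT and 55.3, 58.3 and 30.1 CPM in the N6L polysomes, where culture 3 again lay below 2 NT libraries. Its log2 change was 0.44 ± 0.28 (SE, FDR 0.336), and with the length and GC offset it was 0.51 and passed (FDR 0.0352). Without N6L culture 3 the log2 change was 0.68 for Skil (FDR 0.112) and 0.49 for Smad2 (FDR 0.122).

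The other 5 members had FDR values of 0.238 to 0.853 on polysomes. Tgfb1 was at 36.8, 38.6 and 31.9 CPM in the NT and 33.9, 32.5 and 47.1 CPM in the N6L polysomes, a log2 change of 0.08 ± 0.17 (SE) that turned to -0.11 without N6L culture 3. Tgfbr1 was at 6.37, 4.91 and 4.43 CPM in the NT and 7.57, 9.31 and 5.23 CPM in the N6L polysomes. The log2 change of Smad4 was -0.15 ± 0.18 (SE) and that of Smad7 was -0.06 ± 0.16, the latter again with a sign that flips under scaling by library size alone. On polysomes 2 of 9 members had no overlap between treatments, against 25.6% of all genes.

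The polysome-to-cytoplasm comparison within a treatment sets the polysomal level of an mRNA against its cytoplasmic level. Each level is scaled to a common library size and so is relative to the other mRNAs of that fraction. A log2 ratio of 0 does not stand for equal amounts in both fractions. It shares its libraries with the comparisons above, so that a high value in the N6L cytoplasm enters both. In NT cells no member was called by edgeR, and 0.209% of all genes tested were. By the same fit 1 member had an unadjusted p under 0.05, and DESeq2 called 1.

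That member was Tgfbr1, whose polysomal level was lower than its cytoplasmic level in each culture. Its log2 ratios of polysomes over cytoplasm were -1.14, -0.69 and -0.96 in NT cultures 1, 2 and 4. The log2 change was -0.98 with an FDR of 0.146 in the fit without a block, 0.0308 in a paired fit, where the culture is a block that joins both fractions of 1 lysate, and 0.0310 by DESeq2. With the length and GC offset it was -0.65 (FDR 0.149). Skil had log2 ratios of -0.35, -0.71 and -0.50, and its log2 change of -0.52 (FDR 0.432) was -0.11 with that offset, while Smad4 lay between 0.07 and 0.10 in the 3 NT cultures. Tgfb1, Tgfb2 and Tgfbr2 were also lower on polysomes in each NT culture.

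In N6L-treated cells 3 members were lower on polysomes than in the cytoplasm, where 39.0% of all genes were called and 20.6% were lower. Skil had log2 ratios of -0.73, -1.12 and -1.79 in N6L cultures 1, 2 and 3, and a log2 change of -1.17 ± 0.28 (SE, FDR 0.00758). Tgfbr1 had log2 ratios of -0.92, -0.83 and -1.19 and a log2 change of -0.96 ± 0.25 (SE, FDR 0.0119). Tgfbr2 had log2 ratios of -0.32, -0.28 and -0.66 and a log2 change of -0.41 ± 0.15 (SE, FDR 0.0394).

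With the culture as a block Smad3 joined these 3 at -0.30 (FDR 0.0472), in a fit that called 7460 of all 13889 genes. The log2 ratios of Smad3 were -0.18, -0.20 and -0.51, so that culture 3 was the lowest for Skil, Tgfbr1, Tgfbr2 and Smad3 alike. Without N6L culture 3 none of the 3 members was called (FDR 0.0514 for Skil at -0.94, 0.0548 for Tgfbr1 at -0.88 and 0.226 for Tgfbr2 at -0.30), and without N6L culture 2 none was either. The calls over all genes also fell, from 5415 of 13889 to 1653 of 14088 without N6L culture 3 and 1153 of 14019 without N6L culture 2. The values depended on the length and GC offset, with which the log2 changes were -0.33 for Skil (FDR 0.136), -0.35 for Tgfbr1 (FDR 0.195) and -0.07 for Tgfbr2 (FDR 0.701). Under that offset Smad2 turned from -0.22 (FDR 0.418) to 0.39 and was called higher on polysomes (FDR 0.0437).

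**Figure D3:**
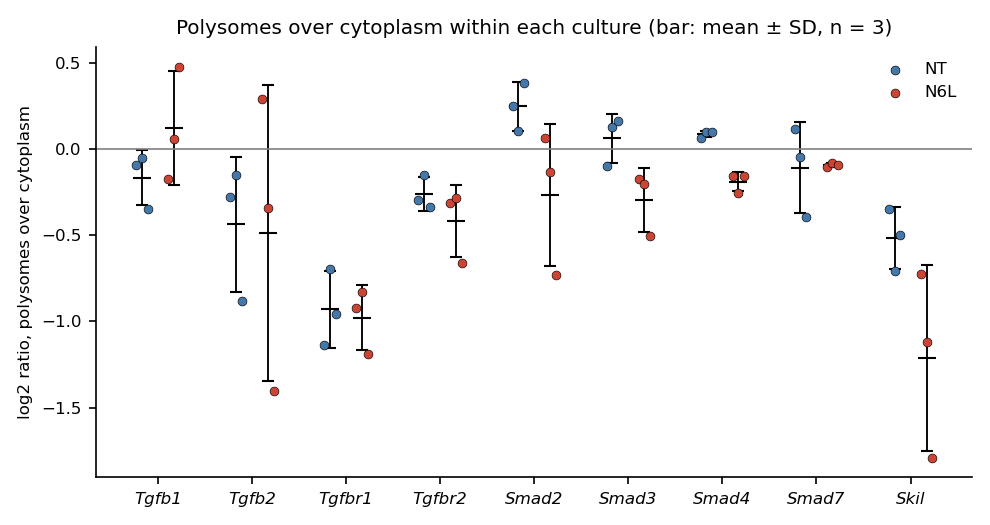
Log2 ratio of the polysomal over the cytoplasmic level of each gene (vertical axis) within each culture, NT in blue and N6L in red; points are cultures and bars the mean ± SD of 3 cultures. Tgfbr1 (-0.69 to -1.19), Tgfbr2 (-0.15 to -0.66) and Skil lie below 0 in all 6 cultures, and the N6L cultures of Skil spread from -0.73 to -1.79.

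The translational index, which is the polysome-to-cytoplasm log2 ratio in N6L cells minus that in NT cells, was past the threshold for no member. By edgeR 0 of 13889 genes (0%) passed, with 1074 at an unadjusted p under 0.05, and DESeq2 gave 0 with 1286. The lowest index among members was that of Skil (-0.65), followed by Smad2 (-0.45), Smad3 (-0.34) and Smad4 (-0.27), with FDR values of 0.555 to 0.634, and no member had an unadjusted p under 0.05. This order depended on the length and GC offset, with which the index was -0.22 for Skil, -0.07 for Smad2, -0.35 for Smad3 and -0.31 for Smad4. Tgfbr1, whose ratio was low in both treatments, had an index of 0.03, and of 0.30 with the offset. With the culture as a block no member passed either, and 3 members (Skil, Smad2 and Smad3) had an unadjusted p under 0.05. The cytoplasmic rise of Skil, Smad2 and Smad3 was thus not shown to differ from their polysomal change.

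Over the 12 libraries, the genes whose log2 CPM followed a member most closely were looked for where the mean level reached 10 CPM. The 12 points are 6 cultures and share 2 fractions, 2 treatments and the length trend described above. Skil was followed by Creb5 (Pearson r = 0.997), Mynn (0.993) and Arid5b (0.991). Smad3 was followed by Ago1 (0.991), Epc1 (0.987) and Tbc1d2b (0.981), and Tgfbr2 by Fam214a (0.988) and Zdhhc17 (0.983).

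For the other members, the closest gene was Tmem201 for Tgfb1 (0.897), Igf2bp1 for Smad7 (0.865) and Fam168b for Smad4 (0.939). For Tgfbr1 it was Mfsd14a (0.978) and for Smad2 it was Acad9 (0.975). Among members, Tgfbr2 and Skil had r = 0.891, Tgfbr2 and Smad3 0.887, and Smad2 and Smad3 0.878, whereas Tgfb1 and Smad2 had r = -0.560. Many other genes were closer to each of these: in the order by r, Skil was at place 253 and Smad3 at place 268 for Tgfbr2. Tgfbr2 was at place 837 for Skil and 324 for Smad3, Smad3 at place 160 for Smad2, and Smad2 at place 378 for Smad3.

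The other genes of the pathway, 69 in all of which 59 were tested, are given by role. In the cytoplasm 16 rose and 4 fell with N6L, where 28.3% of all genes tested were called, and on polysomes 9 rose and 3 fell, where 9.67% were. Without N6L culture 2 the number called was 8 in the cytoplasm and 5 on polysomes, and without NT culture 1 it was 11 and 4. The same fits called 1295 and 146 of all 14019 genes without N6L culture 2, and 2253 and 203 of all 14084 without NT culture 1. The median log2 change over the 59 genes was 0.27 in the cytoplasm and 0.07 on polysomes, against 0.04 and 0.00081 over all genes. With the length and GC offset the medians were 0.13 and 0.15, and 22 and 18 pathway genes were called. For all 13867 genes in that fit the medians were 0.011 and -0.016, with 4307 and 2679 genes called. Names below follow a fixed rule of size among called genes that reached a mean of 10 CPM in either treatment.

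Among 12 tested genes for ligands, latency and activation, 1 rose and 1 fell in the cytoplasm. Thbs1, thrombospondin 1, which releases TGF-beta from its latent complex, went from 4.14 ± 1.37 to 17.9 ± 6.13 CPM (log2 change 2.10, FDR 0.00322), and from 3.02 ± 0.642 to 10.1 ± 6.25 CPM on polysomes (1.74, FDR 0.0178). Ltbp3, which anchors the latent complex in the matrix, went from 58.5 ± 2.16 to 41.3 ± 5.85 CPM in the cytoplasm (-0.50, FDR 0.0288).

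Of 5 tested receptor genes, 1 rose in the cytoplasm and 2 on polysomes. The activin type I receptor gene Acvr1b went from 12.3 ± 1.46 to 18.7 ± 2.34 CPM on polysomes (0.61, FDR 0.0283). The receptor gene that rose in both fractions was the co-receptor gene Tgfbr3, with log2 changes of 1.52 (FDR 0.000923) and 1.44 (FDR 0.00259), named although its level of 2.02 to 5.79 CPM in the cytoplasm was under the limit of the rule, and so chosen after its values were seen.

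Of 8 tested transducers and cofactors, 2 rose in the cytoplasm and none was called on polysomes. Ep300, the acetyltransferase that works with Smad complexes, went from 76.7 ± 23.2 to 195 ± 7.55 CPM in the cytoplasm (1.34, FDR 0.0117). Usp9x, a deubiquitinase that acts on Smad4 and 1 of 4 such positive regulators, went from 16.5 ± 5.59 to 55.9 ± 8.58 CPM in the cytoplasm (1.76, FDR 0.00454). On polysomes Usp9x was not called, at 13.6 ± 2.12 CPM in NT and 17.6 ± 9.31 CPM in N6L cells (0.38, FDR 0.525). In the BMP branch 2 of 6 genes rose in the cytoplasm and none was called on polysomes.

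Of 11 negative regulators 2 rose and 1 fell in the cytoplasm, and 1 rose and 2 fell on polysomes. Pmepa1, a TGF-beta target that restrains Smad2 and Smad3, fell in both fractions, from 87.8 ± 10.6 to 54.6 ± 3.46 CPM in the cytoplasm (-0.68, FDR 0.00713) and from 77.4 ± 6.08 to 51.9 ± 7.93 CPM on polysomes (-0.58, FDR 0.0325). On polysomes Strap, a partner of Smad7, fell (-0.47, FDR 0.0482) and the corepressor gene Tgif2 rose (0.59, FDR 0.0491).

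Of 13 target genes tested, 7 rose and 2 fell in the cytoplasm, and 5 rose and 1 fell on polysomes. The matrix-associated genes Ccn2 (1.06, FDR 0.00535) and Fn1 (1.04, FDR 0.00625) rose in the cytoplasm, and Ccn2 also on polysomes (1.34, FDR 0.00435).

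Id2 and Id3, inhibitors of basic helix-loop-helix factors that answer mainly to the BMP branch, rose in both fractions, with log2 changes of 1.06 (FDR 0.0146) and 1.39 (FDR 0.0135) in the cytoplasm and 1.25 (FDR 0.0156) and 2.06 (FDR 0.00543) on polysomes. Junb, an AP-1 gene, rose on polysomes from 769 ± 134 to 1771 ± 543 CPM (1.20, FDR 0.00487). Snai2, a repressor of epithelial genes, fell in both fractions (-0.78 with FDR 0.0369 in the cytoplasm and -1.07 with FDR 0.0230 on polysomes), and the cell cycle inhibitor gene Cdkn2b fell in the cytoplasm (-0.45, FDR 0.0411). Genes of this list moved in both directions, and many also respond to other pathways.

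**Figure D4:**
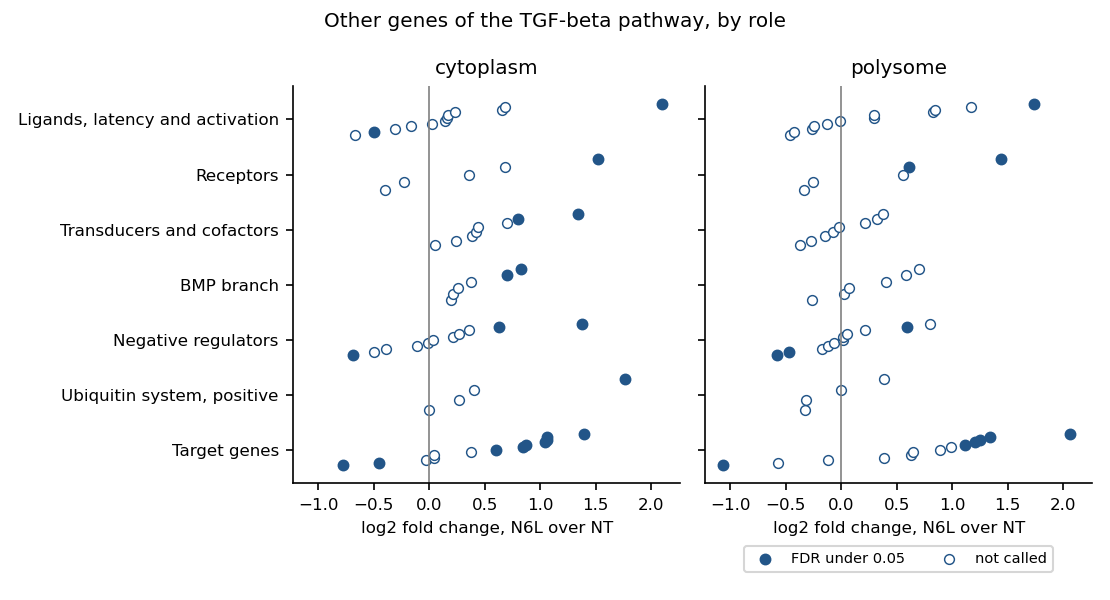
Log2 fold change of N6L over NT (horizontal axis) for the 59 tested pathway genes other than the members, in rows by role, in the cytoplasm (left) and on polysomes (right); each point is 1 gene and filled points have an FDR under 0.05. In the cytoplasm 16 filled points lie to the right of 0 and 4 to the left, on polysomes 9 and 3.

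Between fractions, 0 of the 59 pathway genes were called in NT cells, with 16 at an unadjusted p under 0.05 by edgeR, 3 called by DESeq2 and 2 with the culture as a block. In N6L cells 5 were higher and 22 lower on polysomes, against 39.0% of all genes called. With the length and GC offset 15 were called, 14 of them lower, where 3155 of 13867 genes were called over all. Without N6L culture 2 the number of pathway genes called was 9 and without N6L culture 3 it was 13. In these 2 fits 1153 of 14019 and 1653 of 14088 genes were called over all. Of the 8 transducers and cofactors 7 were lower on polysomes in N6L cells. The 5 tested receptor genes are named here outside the rule, for comparison with Tgfbr1. Acvr2a (log2 ratios of -1.09 to -1.23), Tgfbr3 and Acvr1b were lower on polysomes in each NT culture. Eng was higher in each, and Acvr2b varied. For the translational index 0 pathway genes passed by edgeR, with 4 at an unadjusted p under 0.05, and 0 by DESeq2. With the culture as a block it was 0 as well, with 14 of the 59 and 2996 of all genes at an unadjusted p under 0.05.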

How the data were processed

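Stranded poly(A)+ libraries were aligned by the authors with STAR, and HTSeq (0.5.3 in the submitters' processing notes, build mm10) gave reads per gene. The deposited values are raw counts without normalization, with 4 technical replicates for every one of 12 libraries. The sources used here do not give the annotation or strand setting of the counting. Positions, symbols and lengths came from GENCODE vM21.

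Technical replicates were summed; pairs of them gave a chi-square of 0.985 to 1.07 per degree of freedom, which is sampling noise. For 3 of them, in the N6L cytoplasm, title and description name different cultures; they were placed by title, and against culture 1 the value was 11.2 to 11.4. Genes kept by filterByExpr were scaled by TMM and tested with the quasi-likelihood test of edgeR 4.0.16 in R 4.3.3, with 1 mean per group from all 12 libraries, no block, and Benjamini-Hochberg adjustment over 13889 genes (limit 0.05). DESeq2 1.42.0 was an alternative. P-values rest on the spread between libraries from cultures of 1 line, and the main fit treats both fractions of a culture as separate libraries. Log2 CPM used a prior count of 2. Simulated data, with 200 genes changed, were used to check the fit.

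Both fractions of a culture come from 1 lysate, which pairs them: over genes, their departures from the group means had correlations of 0.364, 0.452 and 0.645 in NT cultures 1, 2 and 4 and of 0.0368, 0.199 and 0.230 in N6L cultures 1, 2 and 3.

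The 9 members and the lists were chosen with earlier results of these data known. Named were all members, and from the pathway list up to 8 genes per direction and treatment comparison with an FDR under 0.05 and a mean of at least 10 CPM in either group, by size of change; per member with a mean of at least 1 CPM, 3 genes were taken by likeness. Of the genes this rule gave, 2 are not reported here. Promoter sequences are from RefSeq, and 6 windows of Tgfb1, Tgfb2, Tgfbr1, Tgfbr2 and Smad3 were searched. Depth limits Tgfb2 most. Alternatives changed scaling, filter, tool, technical replicates, cultures, samples fitted, block, and length and GC offset.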

Additional observations from a re-analysis of the deposited data

How the results depend on the processing

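Precision is limited by 3 cultures per group and, for Tgfb2, by 5 to 36 counts per library. Of 745 comparisons of a member's change with its alternatives, 667 kept direction and call, 36 lost the call, 10 gained it and 32 changed sign; the cause was not tested.

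With the replicate block (culture for fractions, number for treatments, where numbers 1 and 2 had correlations of 0.228 and 0.0455 in the cytoplasm and 0.296 and 0.00756 on polysomes and so are only a number), members called were 4 in the cytoplasm, 0 on polysomes, 1 in NT and 4 in N6L cells between fractions, and 2 NT pathway genes; with the block and the length and GC offset these were 2, 0, 2 and 4, and 7 pathway genes in NT cells. Calls over all genes in these 4 comparisons were 3438, 906, 203 and 7460 of 13889 with the block. With block and offset they were 3061, 1680, 721 and 5565 of 13867. In the treatment comparisons under the block, numbers 3 and 4 each occur in 1 treatment. NT culture 4 and N6L culture 3 therefore do not enter the estimate of the change there. Members called on polysomes were also 0 without a filter, with technical replicate a alone and with only the groups compared (7 pathway genes), and 2 with the length and GC offset. Between fractions in NT cells, members called were 1 without a filter and with DESeq2, and pathway genes 8 without a filter, 3 with DESeq2, 2 with only the groups compared and 1 with the offset. In N6L cells technical replicate a alone and the offset each called 1 member, and the offset 15 pathway genes. Of 13867 genes the offset called 2679 on polysomes and 3155 between fractions in N6L cells. Without a filter 1 pathway gene passed for the index.

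Leaving out each culture in turn called 1 to 4 members and 8 to 20 pathway genes in the cytoplasm (fewest without N6L culture 2, with 11 pathway genes without NT culture 1 and 13 without NT culture 2), 0 to 1 and 4 to 14 on polysomes (4 without NT culture 1 and 5 without N6L culture 2), 0 to 1 and 0 to 2 between fractions in NT cells (most without N6L culture 3), and 0 to 2 and 9 to 28 in N6L cells (9 when N6L culture 2 and 13 when N6L culture 3 was left out, with 0 members in both cases). Calls over all genes in these fits were, in the same order, 1295 to 4042, 146 to 1579, 0 to 335 and 1153 to 5861.

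Changes of sign were all in log2 changes not called in the main analysis. With library size alone they were Smad7 in the cytoplasm (0.076), on polysomes (0.025) and in the index (-0.050), Smad3 between fractions in NT cells (-0.020), Tgfb1 between fractions in N6L cells (-0.0093) and the Tgfbr1 index (-0.020). Without a filter they were the indices of Tgfbr1 (-0.0047) and Smad7 (-0.024). With the length and GC offset they were Tgfb1 on polysomes (-0.052), Smad3 in NT cells (-0.017), Smad2 in N6L cells (0.39) and the indices of Tgfbr2 (0.14) and Smad7 (-0.14). With the block they were Smad7 in the cytoplasm (0.0071), Tgfb1 on polysomes (-0.18) and the Tgfbr1 index (-0.040), and with block and offset Smad7 in the cytoplasm (0.034), Tgfb1 on polysomes (-0.24), Smad3 in NT cells (-0.0092), Smad2 in N6L cells (0.39) and the indices of Tgfbr2 (0.13) and Smad7 (-0.16). The block values for treatment in the cytoplasm and on polysomes rest on cultures 1 and 2 of each treatment alone. Over the left-out cultures, values ran from -0.038 to 0.22 for Smad4 in the cytoplasm, -0.11 to 0.18 for Tgfb1 on polysomes, -0.015 to 0.14 for Smad3 and -0.21 to 0.0081 for Smad7 in NT cells, -0.063 to 0.29 for Tgfb1 in N6L cells, and, for the index, -0.34 to 0.41 for Tgfb2, -0.12 to 0.14 for Tgfbr1 and -0.082 to 0.12 for Smad7.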
